A study of Mus musculus with 24 samples.

Results

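Nap1l1, Fmr1, Cfdp1, Kdm7a and Sprr1a were selected on measured values, as genes other than the target with strong losses, by size or by p-value, in E0771 breast cancer cells that carry a short hairpin RNA (shRNA) against Ptn. They are 5 of the 12091 genes in the deposited table, and each symbol matched a single entry. Because the size of the loss and its p-value in E0771 cells chose the genes, values from that line are a description with no test. The question put to the other samples was which of these losses recurred in a related line with the same shRNA, and which in tumors where an antibody bound the PTN protein.

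RNA sequencing values were available for 24 samples in 4 experiments, with 3 control and 3 PTN-inhibited samples in each. E0771 is a mammary carcinoma line from C57BL/6 mice, and E0771-LG is a line derived from a lung metastasis of E0771. Cells of either line carried an shRNA against EGFP in the vector pLKO.1-puro (shCtrl) or an shRNA against Ptn (shPTN), and all were kept in puromycin for 6 wk. 4T1 mammary carcinoma cells were implanted in BALB/c mice of 8 wk, and MMTV-PyMT tumors arose in FVB/N mice treated from 8 to 12 wk of age, in both cases with the control antibody C44 or the anti-PTN antibody 3B10 at 15 mg/kg. A single shRNA was used and each population was selected separately, so an effect of losing PTN, an effect of the shRNA on other transcripts and a difference between selected populations cannot be told apart. In MMTV-PyMT mice the polyoma middle T antigen is driven by the mouse mammary tumor virus promoter, chiefly in mammary epithelium.

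The deposited values are on the log2 scale. In the cell lines and the MMTV-PyMT tumors they were log2 CPM (reads scaled to equal library size) with an offset of 0.5 reads, from 15.63 to 21.12 M reads per sample. The 4T1 values show no steps of whole reads and look scaled for gene length, which is not stated, and their depth is unknown, so levels are compared with 4T1 only within that model. Across all genes, replicates of the same group correlated with an r between 0.967 and 0.990.

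These genes act at different steps between chromatin and the cell surface. Nap1l1 encodes a histone chaperone that carries H2A and H2B, Cfdp1 encodes a subunit of the SRCAP complex that places the variant H2A.Z in nucleosomes, and Kdm7a encodes a Jumonji (JmjC) demethylase of repressive lysine marks on histone H3. Fmr1 encodes FMRP, an RNA-binding protein that restrains translation and whose loss causes fragile X syndrome, and Sprr1a encodes a small proline-rich protein that is cross-linked into the envelope of cornified epithelium and is also induced in injured neurons.

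The genes lie on 5 chromosomes of GRCm38. Nap1l1 (ENSMUSG00000058799) spans chromosome 10 from 111473223 to 111498150 on the plus strand, and Cfdp1 (ENSMUSG00000031954) spans chromosome 8 from 111768491 to 111854291 on the minus strand. Kdm7a (ENSMUSG00000042599) spans chromosome 6 from 39136623 to 39206789 on the minus strand, which is the chromosome and strand of the shRNA target Ptn (36714929 to 36810220). Fmr1 (ENSMUSG00000000838) spans chromosome X from 68678541 to 68717963 on the plus strand, and Sprr1a (ENSMUSG00000050359) spans chromosome 3 from 92483952 to 92485895 on the minus strand.

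The overlapping words AAACAGA and CAAACAG, which occur in the Ptn transcript, were searched on the transcript strand because earlier counts in these data had found genes with either word to be lower in shPTN cells. The sequence of the shRNA was not used here. In the longest annotated 3′ UTR, 3 of the 5 genes held a match. Fmr1 held 3 matches in 2288 bases, Cfdp1 held both words as the joined run CAAACAGA at base 193 of 206, and Kdm7a held 1 match at base 3086 of 6588. The 3′ UTRs of Nap1l1 (2075 bases) and Sprr1a (306 bases) held none. The sites are shown with their flanks so that the matches can be read in place, with the word in capitals and the distance after the stop codon in the name.
Fmr1, base 1516: aaaagtattgcCAAACAGtaatgttgatt
Fmr1, base 1569: atagtatttgaAAACAGAaattggtacct
Fmr1, base 1758: tattttgtatgCAAACAGtttcaataaag
Cfdp1, base 193: ttttaaataaaCAAACAGAaccctc
Kdm7a, base 3086: ggcccatttgtAAACAGAacaaacaaaac
Ptn, base 760: aggagattaggAAACAGAcaccctcagag

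Outside the 3′ UTR, the joined run also lies in the coding part of Ptn and of Cfdp1, shown here for comparison with the word in capitals and the position in the transcript in the name.
Ptn, position 516: ggcgccgagtgCAAACAGAccatgaagact
Cfdp1, position 655: ctttcctcaagCAAACAGAgagagaaaaac

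**Figure D1:**
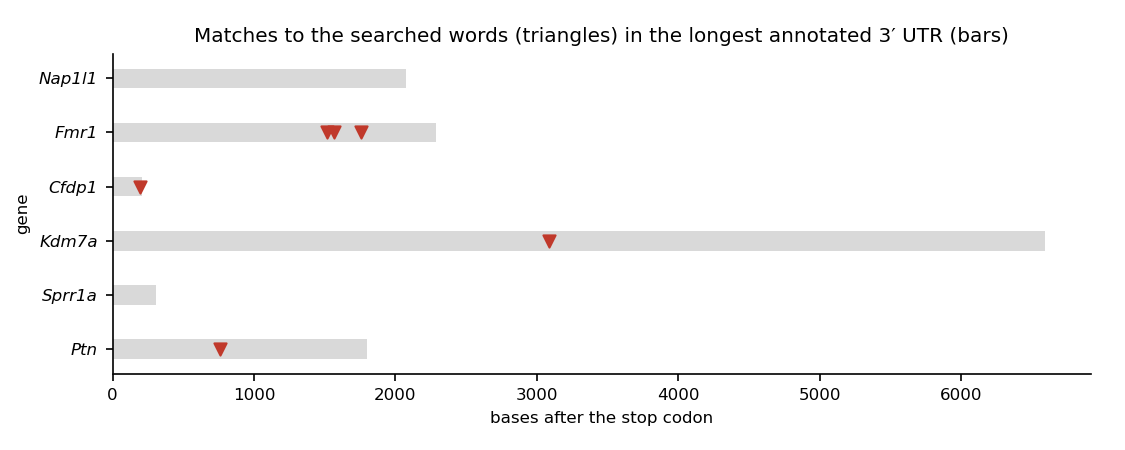
Matches to either word (triangles) along the longest annotated 3′ UTR (grey bars, in bases after the stop codon) of the 5 genes and Ptn. Fmr1 has 3 matches between bases 1516 and 1758, Cfdp1 1 near its end and Kdm7a 1, whereas Nap1l1 and Sprr1a have none.

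How common such matches are depends on the length of the 3′ UTR. Either word was found in 26.3% of 11641 genes with an annotated 3′ UTR, in 51.1% of genes whose 3′ UTR is at least as long as that of Fmr1 and 16.3% of those with one no longer. For Kdm7a these shares were 83% and 25.3%, and for Cfdp1 they were 28% and 2.67%. Because these data had pointed to the words, the following values restate that choice and are a description. Genes with either word had a median log2 fold change of −0.11 in E0771 cells against −0.01 for genes with neither, and 20.1% against 8.83% of them passed as lower. In E0771-LG cells these medians were −0.15 and 0.11, and 33.2% against 18.3% passed as lower. Shares that passed as higher were 6.7% against 9.83% in E0771 and 14.5% against 27.6% in E0771-LG cells. The medians were −0.03 and 0.02 in 4T1 and 0.04 and 0.05 in MMTV-PyMT tumors, and 0 genes of either kind passed in either model. The genes with a word also had longer 3′ UTRs, with a median of 2524 against 1079 bases among those tested in E0771 cells, and the part of length in these differences was not tested. The longest run of bases shared with the Ptn transcript was 17 in Fmr1, a length reached by 15.9% of genes, and 15 in Kdm7a, 13 in Nap1l1, 11 in Cfdp1 and 10 in Sprr1a, lengths reached by 29.3% or more.

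The label of the knockdown was checked first on Ptn itself. In E0771 cells its log2 CPM was 2.90, 2.18 and 2.28 with shCtrl and −0.63, 0.25 and 0.53 with shPTN, and in E0771-LG cells 3.65, 4.51 and 3.74 with shCtrl and 1.42, 0.98 and 1.38 with shPTN. The groups did not overlap in either line. Ptn fell by 2.40 on the log2 scale in E0771 cells (SE 0.37, adjusted p = 0.00159), leaving 18.9% of the control level, and its log2 fold change in the E0771-LG line was −2.71 (SE 0.28, adjusted p = 6.3e-05), leaving 15.3%, with 3 of 3 shPTN samples lower in each line. The size of the Ptn loss was not shown to differ between the lines, with a difference of −0.30 (SE 0.48, adjusted p = 0.647 for the limma interaction). The antibody acts on the protein, and in tumors Ptn RNA overlapped between C44 and 3B10. Its values were −0.19, −0.65 and −0.12 against −0.76, 0.86 and 0.37 in 4T1 and 2.80, 2.73 and 3.42 against 3.28, 2.95 and 4.22 in MMTV-PyMT tumors. In MMTV-PyMT tumors the difference was 0.50 (SE 0.37, adjusted p = 1), or 0.13 without 3B10 replicate 3 and 0.77 without 3B10 replicate 2, and in 4T1 tumors Ptn was too low to be tested.

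Nap1l1 was read deeply in all cell samples, so counting error is small for it. Its log2 CPM was 9.52, 9.47 and 9.30 with shCtrl and 7.38, 7.10 and 7.40 with shPTN. Both groups were narrow and stood 1.89 apart at their nearest samples. The difference of −2.13 (SE 0.10) left 22.8% of the control level. Its p was the smallest among the 5671 genes with a lower estimate in this line, where p-values were part of the choice. E0771-LG cells had 9.42, 9.06 and 9.15 with shCtrl and 7.85, 7.63 and 7.42 with shPTN. Their values were not the stated basis of the selection, although it was made with earlier results of these data known. Again there was no overlap, with 3 of 3 shPTN samples under the lowest control. In these cells Nap1l1 fell by 1.58 on the log2 scale (SE 0.13, 95% interval −1.86 to −1.29, adjusted p = 2.52e-05), to 33.5% of control. By exact two-sided permutation the p was 0.1, the smallest that 3 against 3 samples can give.

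Part of the Nap1l1 sequence is not its own. Of the 5039 stretches of 50 bases in its exons, 20.9% also occur in another gene, nearly all in the processed pseudogene Gm4204. Such a stretch alone cannot be assigned to either gene. The sequenced reads were longer, and how many of them could not be told apart was not tested. Gm4204 fell by 1.65 in E0771 cells (SE 0.09, adjusted p = 2.34e-06) and, in the LG line, by 1.25 (SE 0.11, adjusted p = 3.51e-05). With both genes summed, the difference was −2.04 in the E0771 line and −1.51 in the E0771-LG line. For Fmr1 such shared stretches were 2.23% and for Kdm7a 0.24%, and Cfdp1 and Sprr1a had 0.

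In tumors, Nap1l1 was not lower with the antibody. Its values were 7.84, 7.92 and 7.77 with C44 against 7.86, 7.98 and 8.40 with 3B10 in 4T1, and 7.97, 8.09 and 7.71 against 8.20, 8.03 and 8.23 in MMTV-PyMT tumors. The groups overlapped in both models. The differences were 0.23 (SE 0.16, interval −0.13 to 0.60, adjusted p = 0.889) in 4T1 and 0.23 (SE 0.15, interval −0.11 to 0.58, adjusted p = 1) in MMTV-PyMT tumors. Both intervals lie above the loss seen in E0771-LG cells. The estimates moved with single samples, to 0.07 in 4T1 without 3B10 replicate 3 and to 0.13 in MMTV-PyMT without C44 replicate 3.

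Cfdp1 showed little spread within groups. In E0771 cells its log2 CPM was 7.62, 7.54 and 7.59 with shCtrl and 6.00, 6.07 and 5.92 with shPTN, with no overlap. This difference of −1.59 (SE 0.08) left 33.2% of control. It had the second smallest p among the losses in that line, a value that was part of the choice. In E0771-LG cells the values were 7.95, 7.92 and 8.04 with shCtrl and 7.57, 7.37 and 7.28 with shPTN. All shPTN samples were again lower, although the gap between the groups narrowed from 1.47 to 0.35. Cfdp1 fell by 0.56 in these cells (SE 0.10, interval −0.79 to −0.34, adjusted p = 0.00124), which left 67.6% of control. The 4T1 values were 8.46, 8.61 and 8.72 with C44 and 8.62, 8.74 and 8.76 with 3B10, and the MMTV-PyMT values were 6.66, 6.50 and 6.47 with C44 and 6.58, 6.54 and 6.70 with 3B10. These groups overlapped. The estimates of 0.11 (SE 0.12, interval −0.16 to 0.38, adjusted p = 0.952) in 4T1 and 0.07 (SE 0.12, interval −0.22 to 0.35, adjusted p = 1) in MMTV-PyMT tumors did not pass, and with single samples left out they ran from 0.04 to 0.17 and from 0.02 to 0.12.

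Kdm7a varied most between replicates among the 4 genes with more than 100 reads in every cell sample. Its log2 CPM in E0771 cells was 4.83, 6.18 and 5.62 with shCtrl and 3.16, 3.26 and 3.09 with shPTN. The shCtrl samples spread over more than a doubling (SD 0.68) while the shPTN samples were tight (SD 0.08), and the groups did not overlap. Its difference of −2.37 (SE 0.29) left 19.3% of control. In E0771-LG cells the values were 4.30, 5.25 and 4.72 with shCtrl and 3.47, 4.39 and 4.84 with shPTN. Here the groups overlapped, with shPTN replicate 1 lowest and shPTN replicate 3 above all but the highest shCtrl sample. Kdm7a did not pass in this line, with a difference of −0.53 (SE 0.40, interval −1.48 to 0.43, adjusted p = 0.316, exact permutation p = 0.5). That estimate leaned on single samples, being −0.15 without E0771-LGshPTN replicate 1, −0.28 without E0771-LGshCtrl replicate 2, −0.75 without E0771-LGshCtrl replicate 1 and −0.83 without E0771-LGshPTN replicate 3, with adjusted p between 0.0532 and 0.703 over 15 alternatives. The interval from −1.48 to 0.43 held both a loss and no change.

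In tumors Kdm7a had log2 values of 4.34, 4.23 and 3.80 with C44 and 3.48, 3.66 and 3.91 with 3B10 in 4T1, and of 4.22, 4.71 and 5.41 against 4.71, 4.54 and 4.87 in MMTV-PyMT. The 4T1 groups overlapped only through the lowest C44 and the highest 3B10 tumor, whereas the MMTV-PyMT groups were interleaved. Kdm7a was the single selected gene with a lower estimate in both models, −0.44 in 4T1 (SE 0.20, interval −0.90 to 0.02, adjusted p = 0.8) and −0.07 in MMTV-PyMT (SE 0.29, interval −0.75 to 0.60, adjusted p = 1). Neither passed. The sign in MMTV-PyMT tumors turned to 0.24 without C44 replicate 3 and to 0.01 without 3B10 replicate 2.

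Of the 5 genes, Fmr1 had the largest difference between the control cells of the 2 lines. In E0771 cells its log2 CPM was 8.29, 8.11 and 8.11 with shCtrl and 6.55, 6.62 and 6.77 with shPTN, with no overlap and a difference of −1.52 (SE 0.09) that left 34.8% of control. In E0771-LG cells the values were 9.80, 9.88 and 9.93 with shCtrl and 9.05, 8.79 and 8.86 with shPTN. The groups again did not overlap, and even the E0771-LGshPTN samples lay above every E0771shCtrl sample. Fmr1 fell by 0.97 in E0771-LG cells (SE 0.09, interval −1.17 to −0.76, adjusted p = 4.54e-05), to 51.2% of control. Its control level was 1.70 higher in E0771-LG than in E0771 cells on the log2 scale.

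In tumors Fmr1 had values of 4.97, 4.96 and 4.69 with C44 and 4.90, 5.06 and 5.30 with 3B10 in 4T1, and of 5.52, 6.29 and 6.16 against 6.24, 6.31 and 6.09 in MMTV-PyMT. The groups overlapped in both, and the low MMTV-PyMT sample was C44 replicate 1. The differences were 0.21 (SE 0.16, adjusted p = 0.908) and 0.22 (SE 0.21, adjusted p = 1), and the second became −0.01 without that C44 sample. In 4T1 the difference was 0.11 without 3B10 replicate 3, 0.12 without C44 replicate 3 and 0.31 without 3B10 replicate 1.

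Sprr1a had the fewest reads of the selected genes, so its values carry the largest counting error. In E0771 cells its log2 CPM was 2.07, 3.32 and 2.78 with shCtrl, from 72 to 204 reads, and −0.41, 0.76 and 0.53 with shPTN, from 14 to 30 reads. The groups stood 1.31 apart, and the difference of −2.44 (SE 0.40) left 18.5% of control. With a pseudocount of 1 it was −1.77. In E0771-LG cells the values were 3.71, 3.93 and 3.76 with shCtrl and 2.79, 3.17 and 2.75 with shPTN, from 226 to 299 and from 117 to 162 reads. Every shPTN sample was lower. Sprr1a fell by 0.90 in these cells (SE 0.19, interval −1.31 to −0.48, adjusted p = 0.0031), to 53.8% of control. It no longer passed when all 24 samples were fitted together (adjusted p = 0.242, the highest of 15 alternatives, the lowest being 0.000737).

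In tumors Sprr1a was at the edge of detection and the filter kept it out of the limma fits. In 4T1 its values were −0.98, −0.46 and −0.49 with C44 and 0.92, −0.98 and −0.68 with 3B10, where −0.98 is the lowest value in the samples. These groups overlapped. In MMTV-PyMT tumors there were 3, 1 and 1 reads with C44 and 21, 3 and 15 with 3B10, or −2.45, −3.68 and −3.64 against 0.40, −2.40 and −0.07 as log2 CPM. Both 3B10 tumors with more than 3 reads lay above all others, while the third was set apart from the highest C44 tumor by library size alone, as each had 3 reads. Summed, there were 5 reads in 57.19 M with C44 and 39 in 50.99 M with 3B10, a ratio of 8.75 (95% exact interval 3.45 to 28.4, counting error only). With single tumors left out, the ratio was highest without C44 replicate 1, which held 3 of the 5 reads, at 14.5 (3.76 to 124). It was lowest without 3B10 replicate 1, which held 21 of the 39 reads, at 5.93 (2.12 to 20.4). The exact two-sided permutation p on log2 values was 0.1, the smallest possible.

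**Figure D2:**
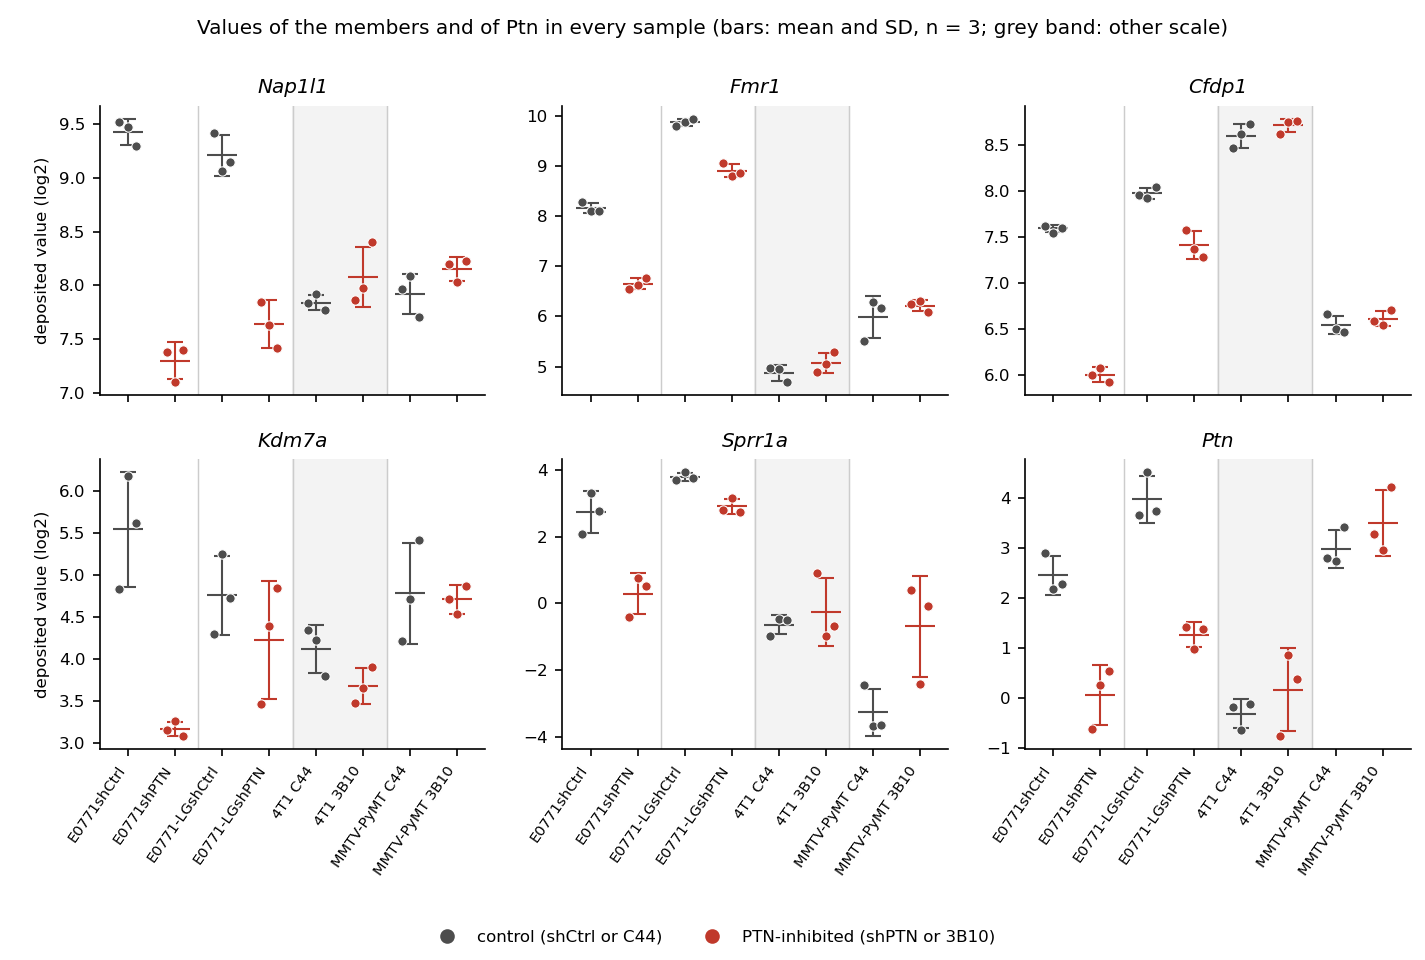
Deposited log2 values of the 5 genes and Ptn in each of 24 samples (points), with mean and SD (bars, n = 3) for each of 8 groups. The 4T1 samples (grey band) are on a scale of their own. In E0771 and E0771-LG cells all shPTN samples of Nap1l1, Cfdp1, Fmr1 and Sprr1a lie below all shCtrl samples, whereas Kdm7a overlaps in E0771-LG cells.

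Counted over the selected genes, all 5 were lower without overlap in E0771 cells, where 22.5% of the 10394 genes tested were lower without overlap and 11.7% passed as lower. Nothing is read from this count, since these values chose the genes. The number of genes that passed in E0771 cells in either direction also depended on single samples, being 2140 with all of them, 1268 without E0771shCtrl replicate 2, 1171 without E0771shCtrl replicate 3 and 1238 without E0771shPTN replicate 3. In E0771-LG cells 4 of the 5 passed as lower, against 22.1% of 10405 genes. The same 4 were lower without overlap, against 26.7% of genes. The median log2 fold change of the selected genes there was −0.90, against 0.05 for all genes.

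Other genes lost as strongly in E0771 cells were also often lower in E0771-LG cells. Of 35 other genes that passed in E0771 cells with a loss of at least 1.52, the loss of Fmr1, and that were tested in E0771-LG cells, 19 (54.3%) passed as lower and 3 as higher, with a median of −0.76. So the selected genes, at 4 of 5 and a median of −0.90, stood near this group. Over the 10223 genes tested in both lines, 485 passed as lower in both, which is 40% of the 1211 losses in E0771 and 21.4% of the 2270 losses in E0771-LG cells.

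In tumors no gene passed by limma, 0% of 11467 genes in 4T1 and 0% of 11361 in MMTV-PyMT, and 0 of the 4 selected genes tested in each passed. At an unadjusted p under 0.05 there were 719 genes in 4T1 and 307 in MMTV-PyMT, none of them selected genes. The 4T1 count at an adjusted p under 0.05 went from 0 to 2 without 4T1 3B10 replicate 1 and to 6 with all 24 samples in a single fit. The median of the tested selected genes was 0.16 in 4T1 against 0.01 for all genes, and 0.14 in MMTV-PyMT against 0.05. The tumors are mixtures, in which fewer cells of a type and less RNA per cell cannot be told apart.

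**Figure D3:**
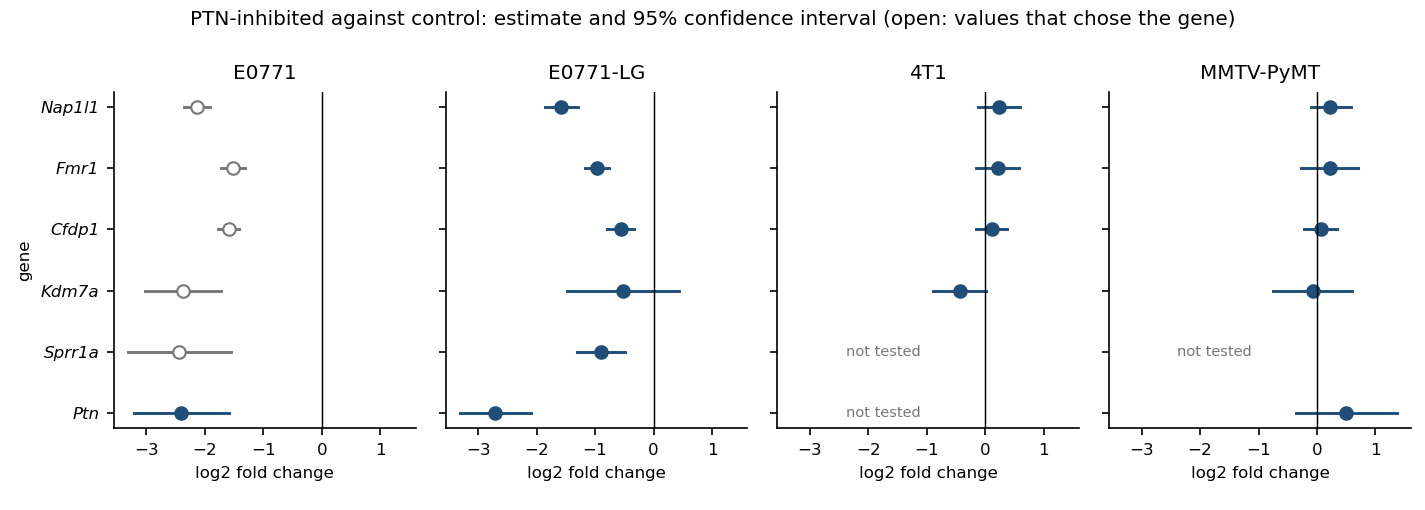
Log2 fold change of PTN-inhibited against control samples (points) with 95% confidence intervals (lines) for the 5 genes and Ptn in each experiment. Open points are E0771 values that chose the genes. In E0771-LG cells the intervals of Nap1l1, Fmr1, Cfdp1 and Sprr1a end below 0, at −1.29, −0.76, −0.34 and −0.48, and that of Kdm7a ends at 0.43.

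The loss was smaller in E0771-LG than in E0771 cells for each of the 5 genes. The genes were chosen at the extreme of the E0771 values, so these differences are given without a test, and their cause was not tested. The E0771-LG effect was 73.9% of the E0771 effect for Nap1l1 on the log2 scale, 63.4% for Fmr1, 36.7% for Sprr1a, 35.5% for Cfdp1 and 22.1% for Kdm7a. The E0771-LG minus E0771 differences were 0.56 (SE 0.18) for Nap1l1, 0.56 (SE 0.13) for Fmr1, 1.54 (SE 0.47) for Sprr1a, 1.02 (SE 0.13) for Cfdp1 and 1.85 (SE 0.54) for Kdm7a. These shares rest on the E0771 values that chose the genes, and that of Kdm7a moves with single E0771-LG samples, so no order of the genes is read from them.

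**Figure D4:**
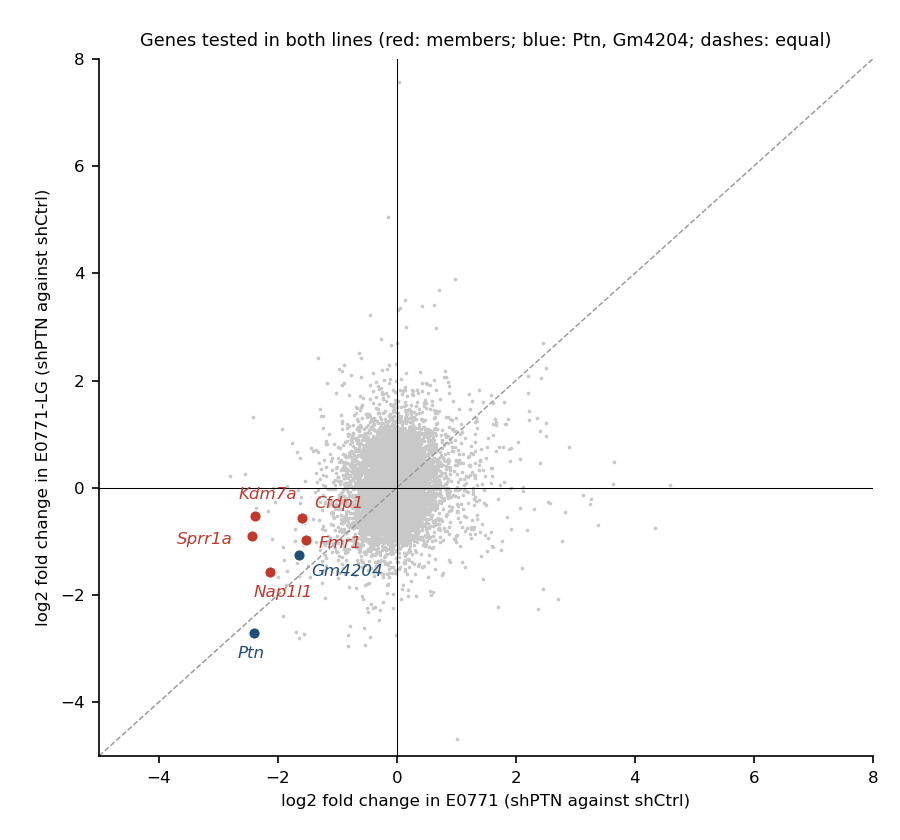
Log2 fold change with shPTN in E0771 (horizontal) and E0771-LG cells (vertical) for 10223 genes tested in both lines, with the 5 genes in red, Ptn and Gm4204 in blue and equal effects dashed. Ptn lies at −2.40 and −2.71, Nap1l1 at −2.13 and −1.58, and Kdm7a at −2.37 and −0.53.

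Genes that ranked next to the selected ones in E0771 cells show where the choice ended. By log2 fold change Sprr1a ranked 4, Kdm7a 7, Nap1l1 11, Cfdp1 42 and Fmr1 47. Stab1 (−2.55) and Myo1d (−2.42) surrounded Sprr1a, at mean levels of 0.57 and −0.36 log2 CPM over the 6 samples against 1.51 for Sprr1a. Arhgef3 (−2.36), Chml (−2.16) and Mblac2 (−2.09) lay beside Kdm7a and Nap1l1, and Csnk1g1 (−1.60), Ccl2 (−1.57), Cxcl1 (−1.54) and Nup160 (−1.49) beside Cfdp1 and Fmr1. Of these 9 genes, Mblac2 (−0.96), Csnk1g1 (−0.66), Ccl2 (−1.07) and Nup160 (−1.46) also passed as lower in E0771-LG cells. Myo1d passed as higher (1.33), and Stab1 (0.26), Arhgef3 (−0.38), Chml (−0.44) and Cxcl1 (0.13) did not pass. By p among losses, Nap1l1 ranked 1, Cfdp1 2 and Fmr1 4, with Gm4204 at 3 and Klf2 (−1.93) at 5. Klf2 was higher in E0771-LG cells (1.11, adjusted p = 0.00013). A loss of at least 1.52 and a shCtrl level of at least 7 log2 CPM were combined in 6 genes that passed in E0771 cells. These were Nap1l1, Cfdp1, Fmr1, Gm4204, Itga6 (−1.67) and Scaf11 (−1.61). The loss cut is the loss of Fmr1, and the level cut lies under the levels of Nap1l1, Cfdp1 and Fmr1. The cuts thus fixed that these selected genes are among the 6, and nothing is read from it.

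Levels over all conditions placed the genes differently. Among the 6 groups on the log2 CPM scale, Nap1l1 was highest in E0771shCtrl (9.43 ± 0.12, SD, n = 3) and E0771-LGshCtrl (9.21 ± 0.19), which overlapped, followed by MMTV-PyMT 3B10 (8.15 ± 0.11), MMTV-PyMT C44 (7.92 ± 0.19), E0771-LGshPTN (7.64 ± 0.22) and E0771shPTN (7.30 ± 0.17). Of these, E0771-LGshPTN overlapped MMTV-PyMT C44 but not E0771shPTN. The E0771shPTN cells alone were under every MMTV-PyMT tumor without overlap.

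Fmr1 ran from E0771-LGshCtrl (9.87 ± 0.07) through E0771-LGshPTN (8.90 ± 0.13), E0771shCtrl (8.17 ± 0.10) and E0771shPTN (6.65 ± 0.11) to MMTV-PyMT 3B10 (6.21 ± 0.11) and C44 (5.99 ± 0.41). Only the last pair overlapped. Cfdp1 ran from E0771-LGshCtrl (7.97 ± 0.06) to E0771shCtrl (7.59 ± 0.04) and E0771-LGshPTN (7.41 ± 0.15), then MMTV-PyMT 3B10 (6.61 ± 0.08) and C44 (6.54 ± 0.10), and E0771shPTN (6.00 ± 0.08) was lowest. E0771shCtrl overlapped E0771-LGshPTN, and both MMTV-PyMT groups overlapped. The Cfdp1 mean in E0771-LGshPTN cells was 0.18 under that in E0771shCtrl cells, and no test compared these groups.

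Kdm7a overlapped between neighbours over most of its order, with E0771shCtrl (5.54 ± 0.68), MMTV-PyMT C44 (4.78 ± 0.60), E0771-LGshCtrl (4.76 ± 0.47), MMTV-PyMT 3B10 (4.71 ± 0.17) and E0771-LGshPTN (4.23 ± 0.70). E0771shPTN (3.17 ± 0.08) alone stood below its neighbour without overlap. Sprr1a was highest in E0771-LGshCtrl (3.80 ± 0.12), followed by E0771-LGshPTN (2.91 ± 0.23) and E0771shCtrl (2.73 ± 0.63), which overlapped, then E0771shPTN (0.29 ± 0.62) and MMTV-PyMT 3B10 (−0.69 ± 1.50), which also overlapped, and MMTV-PyMT C44 (−3.26 ± 0.70). In the 4T1 model, on its own scale, C44 and 3B10 means were 7.84 ± 0.07 and 8.08 ± 0.28 for Nap1l1, 8.59 ± 0.13 and 8.71 ± 0.07 for Cfdp1, 4.87 ± 0.16 and 5.08 ± 0.20 for Fmr1, 4.12 ± 0.28 and 3.68 ± 0.21 for Kdm7a, and −0.64 ± 0.29 and −0.25 ± 1.02 for Sprr1a (SD, n = 3 each).

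Per kb of exons, Cfdp1 was the most abundant of the 5 genes in the 6 groups on the CPM scale. In E0771shCtrl cells the level in log2 CPM per kb was 7.35 for Cfdp1, 7.11 for Nap1l1, 5.01 for Fmr1, 3.04 for Sprr1a and 2.21 for Kdm7a, and E0771-LGshCtrl cells had the same order. In E0771-LGshPTN cells Fmr1 (5.74) stood above Nap1l1 (5.32). In MMTV-PyMT tumors the places of Sprr1a and Kdm7a were exchanged, with 1.45 for Kdm7a and −2.95 for Sprr1a in MMTV-PyMT C44 tumors.

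Over the 12 cell samples, which share the contrast between shPTN and shCtrl and that between the lines, the genes with the most similar values were found among the 10223 tested in both lines. For Nap1l1 these were Gm4204 (Pearson r = 0.992), Mbd2 (0.987) and B4galt1 (0.978). For Cfdp1 they were Ints8 (0.980), Nln (0.978) and Sepsecs (0.976), for Fmr1 Adat2 (0.989), Copb2 (0.980) and Trim16 (0.979), for Kdm7a Ezr (0.943), Ccdc82 (0.933) and Mblac2 (0.925), and for Sprr1a Klf9 (0.981), Ell2 (0.978) and Ints8 (0.959). Ints8 was shared by Cfdp1 and Sprr1a, which were also the pair of selected genes with the most similar values (r = 0.942, n = 12). The least similar pair was Fmr1 and Kdm7a (0.492).

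Counts of relatives are given beside the share of all genes tested, of which 11.7% passed as lower and 8.89% as higher in E0771 cells and 22.1% and 24.3% in E0771-LG cells. Of the 4 other NAP family genes tested, 0 passed in E0771 cells and, in E0771-LG cells, Nap1l4 was lower (−0.27, adjusted p = 0.0358) and Tspyl2 higher (0.76, adjusted p = 0.00288). The Nap1l4 result was lost without E0771-LGshCtrl replicate 3 (−0.30), E0771-LGshPTN replicate 2 (−0.24) or E0771-LGshPTN replicate 3 (−0.25), and under quantile normalization (−0.18). In E0771 cells 1 NAP family gene was higher without E0771shPTN replicate 1. Of 29 other histone chaperones, 5 (17.2%) passed as lower and 10 (34.5%) as higher in E0771-LG cells, with a median of 0.08 beside 0.05 for all genes. The higher ones included Npm1 (0.83, adjusted p = 5.77e-05), Nasp (0.69, adjusted p = 0.000224) and Ipo4 (0.62, adjusted p = 0.000926), an importin gene that this list also held. The count of lower chaperones was 1 without E0771-LGshCtrl replicate 3, E0771-LGshPTN replicate 2 or E0771-LGshPTN replicate 3, and that of higher ones was 6 without E0771-LGshPTN replicate 1 and 5 without replicate 2. In E0771 cells 0 chaperones were lower and 3 higher, and 0 or 1 were higher without E0771shCtrl replicate 2 or 3 or E0771shPTN replicate 3. The higher count was 5 with median-of-ratios scaling and 0 with all 24 samples in a single fit.

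The list for Cfdp1 held SRCAP subunits, their H2A.Z cargo and Ep400, the ATPase of the related TIP60 complex, which did not pass in E0771 (−0.38, adjusted p = 0.05) or in E0771-LG (−0.43, adjusted p = 0.0792). In E0771-LG cells 7 of 12 (58.3%, beside 24.3% of all genes) passed as higher and 1 (8.33%) as lower, with a median of 0.45 beside 0.05 for all genes. The histone genes H2az2 (1.41, SE 0.16, adjusted p = 0.00012) and H2az1 (0.45, SE 0.08, adjusted p = 0.00132) were higher, as were Yeats4 (0.86), Dmap1 (0.75), Znhit1 (0.70) and Vps72 (0.47). The seventh, Actr6 (0.45, adjusted p = 0.0484), passed in only 4 of 15 alternatives, and was lost without E0771-LGshCtrl replicate 2 (0.38) or 3 (0.40) or E0771-LGshPTN replicate 2 (0.36) or 3 (0.42). Srcap, the ATPase, was the lower one (−1.45, SE 0.40, adjusted p = 0.0131), from a mean of 1.85 to 0.39 log2 CPM, and was lost without E0771-LGshCtrl replicate 3 (−1.24) or E0771-LGshPTN replicate 2 (−1.19). Without E0771-LGshCtrl replicate 1 there were 2 lower. In E0771 cells, where Cfdp1 was at its lowest, only Ruvbl2 passed (−0.27, adjusted p = 0.0344), and it was lost without E0771shCtrl replicate 2 (−0.28) or 3 (−0.23) or E0771shPTN replicate 3 (−0.25), with median-of-ratios scaling (−0.24) and with all 24 samples in a single fit. There were 2 lower without E0771shCtrl replicate 1, with a pseudocount of 1, under quantile normalization and with voom weights. Without E0771shPTN replicate 2 there was 1 higher.

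Kdm7a is the closest relative of Phf8 and Phf2. Phf8 fell in E0771-LG cells (−0.60, SE 0.16, adjusted p = 0.00904) and Phf2 had an estimate of 0.02 (adjusted p = 0.899). Of the 19 other JmjC demethylase genes, 6 (31.6%, beside 22.1% of all genes) were lower and 0 higher by limma in E0771-LG cells, with a median of −0.09. These included Kdm2b (−0.78, adjusted p = 0.000244), Kdm5a (−0.71, adjusted p = 0.000333) and Kdm2a (−0.67, adjusted p = 0.00255), and the count of higher ones was 2 without E0771-LGshCtrl replicate 2. In E0771 cells, where Kdm7a itself was lower, 0 of the 19 passed as lower and 1 as higher. The count of lower ones was 3 without E0771shCtrl replicate 1 and 1 without E0771shPTN replicate 2. A further list held genes for methyltransferases of the histone H3 lysines on which Kdm7a acts, and for subunits of their complexes. Of these 10 genes, 4 (40%) were lower and 2 (20%) higher in E0771-LG cells, the lower ones including Suz12 (−0.71, adjusted p = 0.000206) and Suv39h2 (−0.69, adjusted p = 0.00293). These counts were 2 lower without E0771-LGshCtrl replicate 3 or E0771-LGshPTN replicate 3, and 1 or 0 higher without E0771-LGshCtrl replicate 2 or any E0771-LGshPTN sample. In E0771 cells 2 were lower and 0 higher, and 1 or 0 were lower without E0771shCtrl replicate 2 or 3 or E0771shPTN replicate 3.

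Fmr1 differed from its paralogs. Fxr1 was higher in E0771-LG cells (0.43, SE 0.09, adjusted p = 0.00235) and Fxr2 had an estimate of 0.26 (SE 0.13, adjusted p = 0.122), while in E0771 cells these were 0.06 and 0.01. Of 23 paralogs and partner genes of FMRP, 10 (43.5%, beside 22.1% of all genes) passed as lower and 5 (21.7%) as higher in E0771-LG cells, with a median of −0.13 beside 0.05 for all genes. The lower ones included the granule genes G3bp2 (−1.34, adjusted p = 3.81e-05), Ddx6 (−1.17, adjusted p = 0.000151), Purb (−0.94, adjusted p = 5.81e-05) and Caprin1 (−0.75, adjusted p = 0.000192). The higher ones numbered 3 without E0771-LGshCtrl replicate 3. In E0771 cells 2 were lower, G3bp2 among them (−0.66, adjusted p = 0.000625), and 1 was higher. Without E0771shCtrl replicate 2 or 3 or E0771shPTN replicate 3 these counts were 1 and 0, and without E0771shPTN replicate 1 there were 3 higher.

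Sprr1a was the only gene of the SPRR family in the table. Of the other cornified envelope genes, 3 were tested in E0771 cells and 0 passed, and 2 were tested in E0771-LG cells, where Evpl was lower (−0.76, SE 0.22, adjusted p = 0.0162) and Sbsn had an estimate of 0.04 (adjusted p = 0.942). Evpl was lost without E0771-LGshCtrl replicate 2 (−0.59) or E0771-LGshPTN replicate 3 (−0.68), and with all 24 samples in a single fit. Of the genes induced with Sprr1a in injured neurons, 5 of 8 (62.5%) passed as lower and 1 as higher in E0771 cells, with a median of −0.45 beside −0.03 for all genes. With all 24 samples in a single fit there were 1 lower and 0 higher. Without E0771shCtrl replicate 2 there were 3 lower, and without E0771shCtrl replicate 3 or E0771shPTN replicate 3 there were 0 higher. In E0771-LG cells 2 of 7 (28.6%) were lower and 2 higher, with 0 lower in the fit of all 24, and each count was 1 without E0771-LGshPTN replicate 2 or 3, as was the higher count without E0771-LGshCtrl replicate 3. Gap43, the growth cone gene, was lower in E0771 (−0.92, SE 0.21, adjusted p = 0.0117) and higher in E0771-LG cells (1.93, SE 0.18, adjusted p = 4.43e-05). Its E0771 result was lost with all 24 samples in a single fit (SE 0.52, adjusted p = 0.32, range over alternatives 0.00503 to 0.32). In tumors 0 genes of the lists for any of the 5 genes passed by limma.

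**Figure D5:**
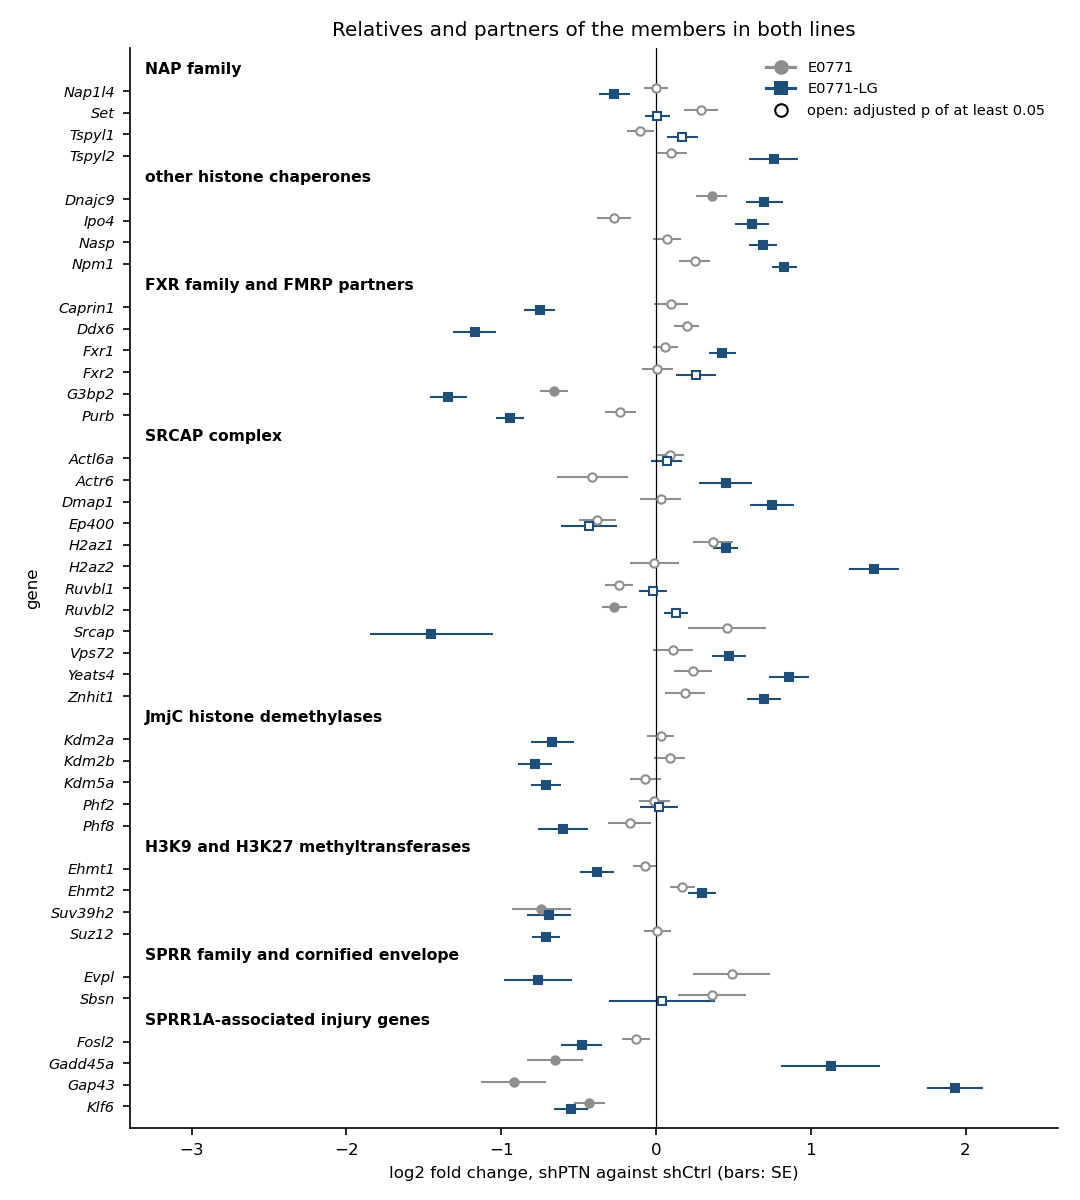
Log2 fold change with shPTN (points, bars SE) of relatives and partners of the 5 genes in E0771 (grey circles) and E0771-LG cells (blue squares), with filled points at an adjusted p under 0.05. The genes of the SRCAP list lie mostly to the right of 0 in E0771-LG cells, as the histone gene H2az2 at 1.41. Cfdp1 fell by 0.56 in these cells, and a link between the 2 was not tested.

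Of the genes of the table that lie nearest to the selected ones on their chromosomes, 8 were tested in cells. Of these 1 (12.5%, beside 11.7% of all genes) was lower in E0771 and 2 (25%, beside 22.1%) in E0771-LG cells, about the share of all genes. Phlda1, 8 kb from Nap1l1, was lower in E0771 (−0.86, SE 0.14, adjusted p = 0.00208) but not in E0771-LG cells (0.33, adjusted p = 0.0957), and Osbpl8, 176 kb away on the other side, had −0.29 in each line (adjusted p = 0.108 and 0.0347). Tmem170, 9 kb from Cfdp1, was higher in E0771-LG cells (1.29, SE 0.26, adjusted p = 0.00224), and Bcar1, 25 kb away, was higher in E0771 cells (0.34, adjusted p = 0.0195). Parp12, 18 kb from Kdm7a, fell in E0771-LG cells (−0.78, SE 0.13, adjusted p = 0.000705), where Kdm7a itself did not pass, and Slc37a3, 128 kb away, had 0.04 and −0.06 in the 2 lines. The nearest tested genes of the table to Fmr1 (Ids, at 1.63 Mb) and to Sprr1a (Gm4202, at 204 kb) did not pass in either line. Annotated genes outside the table, such as those that overlap Fmr1, Kdm7a and Nap1l1, have no values here. Of these, 4930599N23Rik on the other strand shares 287 exonic bases (2.85%) with Kdm7a, and Gm27838 shares 72 (0.803%) with Fmr1. Between Ptn and Kdm7a, 2.33 Mb apart, lie 13 genes of the table, and of the 12 tested 0 were lower and 2 higher in E0771 cells, against 5 lower (41.7%, beside 22.1% of all genes) and 1 higher in E0771-LG cells.

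Markers of cell types were read beside these results. Of 6 epithelial markers, Krt5 had 0 reads in E0771 cells and in E0771-LGshCtrl cells, Epcam had a mean of 2.92 log2 CPM in E0771shCtrl cells, and Krt8 made up most of the list. Its summed level was 99.3 to 114 CPM in E0771shCtrl, 98.9 to 115 in E0771shPTN, 158 to 204 in E0771-LGshCtrl and 424 to 565 in E0771-LGshPTN samples, and 3 of 3 tested genes rose in E0771-LG cells. Fibroblast markers summed to 69.4 to 92.5 CPM in E0771shCtrl and 268 to 312 in E0771shPTN samples, with 4 of 4 tested higher and Col3a1 most changed (2.83, adjusted p = 2.02e-06), but to 76.3 to 117 in E0771-LGshCtrl and 53.8 to 61.4 in E0771-LGshPTN samples. There Col1a1 (−4.68) and Pdgfra (−0.68) were lower, Dcn was higher (1.64, adjusted p = 0.0486), and Col1a2 (1.29) and Col3a1 (−0.45) did not pass. Leukocyte markers summed to 16.1 to 27.7 CPM in E0771shCtrl, 31.6 to 50.3 in E0771shPTN, 6.3 to 10.2 in E0771-LGshCtrl and 13.3 to 23.7 in E0771-LGshPTN samples, with Lyz2 higher in both lines (2.23 and 1.27) and Cd68 in E0771-LG cells (2.17). In E0771 cells Cd68 (−0.92) and S100a8 (−0.56) had lower estimates and did not pass, so that the median of the 3 tested was −0.56, while S100a9 and Csf3r had 0 reads in both lines. Summed fibroblast and leukocyte levels in both lines, and the epithelial level in E0771-LG cells, differed between shPTN and shCtrl samples without overlap. The epithelial level in E0771 cells overlapped between these groups. These are the same samples as for the selected genes, and the part of the lists in the losses was not tested. The summed fibroblast level was higher with shPTN in E0771 cells and lower in E0771-LG cells. The keratinocyte list, which bears on Sprr1a, held only Sbsn in the table, at 4.46 to 4.88 CPM in E0771shCtrl, 5.15 to 7.46 in E0771shPTN, 9.54 to 24.7 in E0771-LGshCtrl and 13.5 to 21.3 in E0771-LGshPTN samples. In MMTV-PyMT tumors Sbsn was at 10.5, 13.6 and 8.74 with C44 and 34.4, 9.71 and 17.3 with 3B10, so that both 3B10 tumors with more Sprr1a reads (21 and 15) were also highest in Sbsn. Its part in the Sprr1a difference was not tested. Of the other lists in cells, endothelial markers had 1 tested gene, Cdh5 in E0771-LG cells, which did not pass (0.22, adjusted p = 0.767), adipocyte markers had Fabp4 lower in E0771-LG cells (−2.46, adjusted p = 0.0017), and of 2 tested muscle markers there Acta1 was lower (−1.20, adjusted p = 0.0292) and Mylpf did not pass (1.09, adjusted p = 0.121), with a median of −0.06. In tumors 0 markers of the 7 lists passed by limma. In 4T1, however, 3 summed levels did not overlap between C44 and 3B10. These were the epithelial markers (3192 to 3464 against 4460 to 5100), the leukocyte markers (6878 to 9827 against 3980 to 6588) and the muscle markers (11.8 to 27.1 against 39.4 to 254). Their part in the 4T1 values of the selected genes was not tested.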

How the data were processed

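The 5 genes, the gene lists and the 3′ UTR words were chosen with earlier results of these data known. The processing choices, groups, tests and most alternatives were fixed before the data were examined. According to the authors, paired reads were aligned and assembled with HISAT2 and StringTie and analysed with Rsubread and edgeR, and the labels also name featureCounts and limma. The step that made the deposited log2 values is not stated by the authors. In 18 of 24 samples (E0771, E0771-LG and MMTV-PyMT) the values, taken off the log scale, are whole reads (to within 0.01 reads), scaled to CPM, with an offset of 0.5. The 6 samples of 4T1 show no such steps and have a floor of −0.98, so their depth is unknown. Library sizes recovered from the values had a median of 18.25 M reads (15.63 to 21.12).

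limma 3.58.1 (R 4.3.3) was run separately for the 4 experiments of 3 against 3 samples, using lmFit and then eBayes with trend and robust options, two-sided and with Benjamini-Hochberg adjustment over all genes tested. A gene was tested if 3 or more of the 6 samples had it at 1 or more on the unlogged scale, counted from that sample's floor. A gene passed at an adjusted p under 0.05. In E0771 cells the selected genes were described without a test. Differences between the lines were tested as a limma interaction over 10223 genes and read for the named genes of the lists. Exact two-sided permutation of 3 against 3 samples cannot go below 0.1.

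Named genes were the selected genes, Ptn, their closest relatives in the table, at most 4 genes per list with the smallest adjusted p in E0771-LG cells, the 3 genes of highest Pearson r per selected gene over 12 cell samples, the nearest gene on each side and the genes of adjoining rank in E0771 cells. Itga6, Scaf11 and single markers were chosen after their values were seen. Lists held the NAP family, other histone chaperones, FMRP partners, the SRCAP complex with Ep400, JmjC demethylases, methyltransferases of histone H3 with subunits of their complexes, cornified envelope genes, injury genes and markers of 7 cell types. Positions, exons and 3′ UTRs came from GENCODE M21 on GRCm38, which holds all 12091 genes, 11641 of them with a 3′ UTR. Exon stretches of 50 bases were compared between genes, and words were searched on the transcript strand. Python 3.11.15 with numpy 2.4.6, scipy 1.17.1, pandas 2.3.3 and matplotlib 3.10.9 and data.table (version 1.17.8) in R were used.

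Alternatives were no filter, a filter in all 6 samples, a pseudocount of 1, quantile and median-of-ratios scaling, voom weights, eBayes without robust, all 24 samples in a single fit, replicate number as a block, and each sample left out in turn. The interaction and its alternatives were chosen after seeing the data. No sample was left out of the values reported. Promoter sequences were not used here.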

Additional observations from a re-analysis of the deposited data

Results flagged for a closer look

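The effect of shPTN differed between the lines for 23 of 41 named genes of the lists, by the limma interaction (E0771-LG minus E0771) at an adjusted p under 0.05. Of the 10223 genes fitted, 3550 (34.7%) did so, and many of the 41 were named for a small adjusted p in E0771-LG cells, so their share is not compared with that of all genes. Over whole lists the share was 7 of 12 (58.3%) for the SRCAP complex with Ep400, 12 of 23 (52.2%) for FMRP partners, 11 of 29 (37.9%) for other histone chaperones, 5 of 19 (26.3%) for JmjC demethylases, 1 of 10 for methyltransferases, 1 of 4 for the NAP family, 1 of 2 for cornified envelope genes and 4 of 7 for injury genes.

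The difference was positive for Tspyl2 of the NAP family (0.66, SE 0.19, adjusted p = 0.0148) and for Fxr1 (0.37, SE 0.11, adjusted p = 0.0169). On the list of other histone chaperones it was positive for Npm1 (0.57, SE 0.13, adjusted p = 0.0044), Nasp (0.63, SE 0.13, adjusted p = 0.00219) and Ipo4 (0.89, SE 0.15, adjusted p = 0.00062). The difference was negative for the FMRP partner genes G3bp2 (−0.67, SE 0.15, adjusted p = 0.00361), Purb (−0.71, SE 0.14, adjusted p = 0.00157), Ddx6 (−1.38, SE 0.17, adjusted p = 6.85e-05) and Caprin1 (−0.85, SE 0.15, adjusted p = 0.00089). G3bp2 was lower in both lines.

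Of the SRCAP genes, the difference was 1.42 for H2az2 (SE 0.25, adjusted p = 0.000937), 0.72 for Dmap1 (SE 0.19, adjusted p = 0.0109), 0.62 for Yeats4 (SE 0.18, adjusted p = 0.0173), 0.40 for Ruvbl2 (SE 0.11, adjusted p = 0.012) and −1.91 for Srcap (SE 0.48, adjusted p = 0.00738). Among genes tied to Kdm7a it was −0.88 for Kdm2b (SE 0.14, adjusted p = 0.000427), −0.64 for Kdm5a (SE 0.14, adjusted p = 0.00394), −0.70 for Kdm2a (SE 0.17, adjusted p = 0.00657) and −0.72 for Suz12 (SE 0.12, adjusted p = 0.000591). Among those tied to Sprr1a it was −1.25 for Evpl (SE 0.32, adjusted p = 0.00818), 2.85 for Gap43 (SE 0.30, adjusted p = 2.13e-05) and 1.78 for Gadd45a (SE 0.39, adjusted p = 0.00359).

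Znhit1 differed by 0.51 (SE 0.17, adjusted p = 0.0292) and Actr6 by 0.86 (SE 0.30, adjusted p = 0.0399). Both were lost under quantile normalization. Znhit1 was also lost under median-of-ratios scaling (0.46) and without E0771shCtrl replicate 1 (0.46) or 3 (0.43), E0771shPTN replicate 2 (0.47) or 3 (0.47), E0771-LGshCtrl replicate 2 (0.47) or E0771-LGshPTN replicate 2 (0.46), with adjusted p from 0.00901 to 0.0865 over 15 alternatives. Actr6 was lost without E0771shCtrl replicate 2 (0.86) or 3 (0.77), E0771shPTN replicate 2 (0.57), E0771-LGshCtrl replicate 2 (0.79) or 3 (0.81) or E0771-LGshPTN replicate 2 (0.77) or 3 (0.83), with adjusted p from 0.0134 to 0.0999. The other 21 differences kept their direction and side of the threshold in 15 of 15 alternatives, which were chosen after seeing the data.

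These results compare separately selected populations of cells, and what made the lines differ was not tested.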

How the results depend on the processing

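Of 191 alternatives tried for the 13 tested effects of the selected genes, 187 kept direction and side of the threshold. Of 74 for the 5 untested effects in E0771 cells, 73 moved by less than the spread between replicates. In E0771-LG cells Nap1l1, Fmr1 and Cfdp1 passed in 15 of 15 each and Kdm7a in 0. With all 24 samples in a single fit, Sprr1a in E0771-LG cells kept its value of −0.90 but no longer passed (adjusted p = 0.242, range over alternatives 0.000737 to 0.242), so that 3 and not 4 selected genes passed. With a pseudocount of 1, Sprr1a in E0771 cells was −1.77 and not −2.44, as adding 1 pulls low values together.

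In MMTV-PyMT tumors, leaving out single samples gave −0.01 to 0.37 for Fmr1 (−0.01 without C44 replicate 1) and −0.35 to 0.24 for Kdm7a (0.24 without C44 replicate 3, 0.01 without 3B10 replicate 2). Neither passed in any alternative, and the cause was not tested.

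The number of genes that passed in E0771 cells, 2140, was 905 with all 24 samples in a single fit and 1171 to 2166 with single samples left out, the lowest being 1171 without E0771shCtrl replicate 3, 1268 without E0771shCtrl replicate 2 and 1238 without E0771shPTN replicate 3. In E0771-LG cells it was 4826, and 3245 to 5122 with single samples left out. In 4T1 tumors, where 0 passed by limma and 719 had an unadjusted p under 0.05, it was 6 with all 24 samples in a single fit and 0 to 2 with single samples left out (2 without 3B10 replicate 1). The cause was not tested. In MMTV-PyMT tumors 0 passed in 15 of 15 alternatives, and 307 had an unadjusted p under 0.05.

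Replicate numbers did not behave as pairs, with correlations of replicate deviations between −0.33 and 0.44. With replicate as a block, the counts of genes that passed were 2450 (E0771) and 5012 (E0771-LG), and 0 in either tumor model, and Kdm7a in E0771-LG cells had an adjusted p of 0.0532 (range 0.0532 to 0.703). Of the list counts in E0771 cells, the block moved lower JmjC genes from 0 to 3 and SRCAP genes from 1 to 2 lower and 0 to 1 higher, and in E0771-LG cells higher JmjC genes from 0 to 1.

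For 102 other results, such as relatives and list counts, 1365 alternatives kept direction and side of the threshold or stayed close to the count. Of the rest, 67 lost the threshold, 82 moved a count and 0 reversed. A count taken as kept was not always equal. The lower FMRP partner genes in E0771-LG cells, 10 in the main fit, ran from 8 to 11 and were taken as kept throughout. Joining all annotated 3′ UTRs of a gene raised the share of genes with either word from 26.3% to 29.7% and left 3 of 5 selected genes with a match. Voom weights could not be fitted for 4T1, whose reads cannot be recovered.

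Depth limits Sprr1a and Ptn most, with 14 to 30 and 12 to 22 reads per E0771shPTN library. In tumors the filter kept Sprr1a out of the limma fits.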
